A study of Mus musculus with 12 samples.

Results

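The 10 genes described here belong to the circadian clock or its output: the period and cryptochrome genes Per1, Per2, Per3 and Cry1, the nuclear receptor genes Nr1d1 and Nr1d2, the transcription factor genes Dbp and Tef, and the activator genes Arntl (also written Bmal1) and Clock. They were taken by name: a probe set counted as a member where the platform annotation gave it 1 of these symbols alone. All 10 genes were measured, by 25 of the 45101 probe sets of the array, and they are 10 of the 18193 genes tested. Of their probe sets 1 each covered Per1, Cry1 and Nr1d1, 2 each covered Nr1d2, Dbp and Arntl, 3 each Per2 and Tef, 4 Clock and 6 Per3.

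The arrays were hybridised with RNA from C4-HD, a mammary carcinoma. It was carried by BALB/c mice under the progestin MPA and was fixed in formalin and embedded in paraffin before its RNA was extracted. At a tumour area of 50 mm2 the MPA pellet was replaced by MFP (mifepristone, which blocks the progesterone receptor and the glucocorticoid receptor) at 10 mg/kg/day. There were 6 groups of 2 arrays: tumours with MPA, tumours 48 h after saline whose source name is "no MPA", and tumours under MFP for 6 h, 12 h, 24 h or 48 h. A contrast of an MFP group with MPA changes 2 things at once, the loss of MPA and the presence of MFP, and all tumours had been exposed to MPA before. A protocol note names tumours given saline in the presence of MPA as controls, and so does not settle whether the saline-treated arrays were without it. The series text names 12, 24 and 48 h and no 6 h group, so the 6 h arrays rest on their labels. No label gives the clock hour at which a pellet was exchanged or a tumour was taken, the light cycle, and hours of treatment and time of day cannot be told apart. The series text calls the replicates independent without saying what separates them, and the p-values given here reflect only how far these arrays spread, which may in part be technical.

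In the mammalian clock the proteins CLOCK and ARNTL bind as a pair to E-boxes and switch on the period, cryptochrome and Nr1d genes and the genes of the PAR bZIP factors DBP and TEF. The period and cryptochrome proteins then block that pair, NR1D1 and NR1D2 (REV-ERB alpha and beta) repress Arntl through elements that the ROR receptors use to activate it, and DBP and TEF act through D-boxes. The loop runs in most tissues, the mammary gland included, and steroid hormones can reset it: Per1 is a direct target of the glucocorticoid receptor.

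Values are given as deposited, on a log2 scale with the MPA arrays averaging to a ratio of 1, so a value of 1 is a doubling; a value says nothing of how strongly a gene is expressed, and levels of different genes were not compared. A value after 6, 12, 24 or 48 h is that of the MFP group of that time. A difference is given with the standard error of limma, which fitted a mean for each of the 6 groups, and a gene is said to have risen, fallen or changed where its p-value, adjusted over all 18193 genes by Benjamini-Hochberg, was under 0.05. Tissue composition differed between the arrays. For 20 liver genes the median reached 3.51 and 4.03 after 24 h of MFP, against values between -2.22 and 1.09 in the other arrays. That over 17 exocrine pancreas genes was between 4.47 and 6.82 in both 6 h arrays, both 48 h arrays and MFP 24 h replicate 2, and at most 0.87 elsewhere. Skeletal muscle genes had a median of 3.51 in MFP 48 h replicate 1 and at most 0.80 elsewhere. The macrophage median was 2.11 in both 48 h arrays and at most 1.11 in the others. The fibroblast and matrix median was 1.66 and 1.81 after 48 h and at most 0.57 elsewhere. After 48 h 9 of its 10 genes rose against MPA, where 6.47% of all genes did. The median over 10 luminal epithelial genes was -0.95 and -0.25 after 48 h and between -0.23 and 0.48 in the other arrays. After 48 h 4 of these 10 fell and 1 rose, where 6.02% of all genes fell and 6.47% rose. Ratios cannot show whether these markers were absent. In bulk tissue fewer cells of a type and less RNA per cell cannot be told apart. The difference between the 3' and 5' probe sets of the Actb control, which rises as RNA breaks, was between -0.09 and 0.14 without MFP, 0.13 and 0.20 after 6 h, 0.34 and 0.36 after 12 h, 0.35 and 0.50 after 24 h, and 0.47 and 0.59 after 48 h. The part of these differences in the results below was not tested.

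The promoters of the 3 genes that changed, Per3, Cry1 and Nr1d2, are shown because the clock acts on its own genes through short elements there. RefSeq promoter windows (GRCm38.p6) were found for 9 of the 10 genes, all but Per2. Each sequence holds the 250 bases before the start that its RefSeq window gives, 5′ to 3′ on the gene's strand. For Per3 this start lies inside the gene record, whose outer bound is base 151044707 of chromosome 4. Matches to the E-box CACGTG, the D-box TTANGTAA or the ROR elements TAGGTCA and TGGGTCA, searched on both strands, are in capitals. The Per3 sequence is chr4:151044666-151044915, the Cry1 sequence chr10:85185055-85185304 and the Nr1d2 sequence chr14:18239107-18239356, all on the minus strand.
Per3: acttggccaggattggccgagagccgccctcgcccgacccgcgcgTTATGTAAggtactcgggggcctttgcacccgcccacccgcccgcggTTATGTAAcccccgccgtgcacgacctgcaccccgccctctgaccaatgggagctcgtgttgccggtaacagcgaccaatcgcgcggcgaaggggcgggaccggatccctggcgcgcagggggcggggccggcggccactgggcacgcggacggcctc
Cry1: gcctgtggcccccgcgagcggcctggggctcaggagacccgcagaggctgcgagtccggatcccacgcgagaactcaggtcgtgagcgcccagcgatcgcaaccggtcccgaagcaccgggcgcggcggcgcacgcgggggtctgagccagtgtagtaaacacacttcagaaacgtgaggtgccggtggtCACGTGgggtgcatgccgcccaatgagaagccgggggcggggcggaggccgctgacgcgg
Nr1d2: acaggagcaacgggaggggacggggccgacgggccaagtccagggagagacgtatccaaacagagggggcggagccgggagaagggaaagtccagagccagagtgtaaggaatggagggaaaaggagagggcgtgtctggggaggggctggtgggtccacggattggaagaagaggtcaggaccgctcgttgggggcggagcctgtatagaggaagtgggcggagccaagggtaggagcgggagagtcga
The Per3 promoter holds 2 D-boxes, at bases -205 to -198 and -158 to -151 from the start, and that of Cry1 holds 1 E-box, at -60 to -55. The Nr1d2 sequence holds none of these letters, which says only that they are not in this window. Over whole windows, which reach a little past the start, E-boxes were found in 3 of the 9 genes (Per1, Cry1 and Tef), against 8.09% of all 27025 genes with a window. A D-box was found in Per3 alone, against 2.72% of all genes, and a ROR element in Arntl alone, against 7.35%. The Arntl element lies 31 to 37 bases past the gene start that a second RefSeq window gives, within chr7:113207529-113207558 on the plus strand.
Arntl: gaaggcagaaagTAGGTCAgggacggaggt
The cyclic AMP response element TGACGTCA, found in 2.03% of all genes, had no match in the members' windows. A match is a description of letters and not evidence of binding.

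Against MPA 3 clock genes changed at some of the MFP times. Cry1 fell after 12 h and 48 h, Nr1d2 rose after 12 h and 24 h, and Per3 rose after 12 h. Per3 then fell from 12 h to 24 h. With quantile normalization, an alternative treated at the end, only Nr1d2 after 12 h passed. All 3 were farthest from MPA after 12 h. The other 7 genes did not pass any test. Among all 6 groups 3 of the 10 members differed (Per3, Cry1 and Nr1d2; F-test of limma), where 17.3% of all genes did, and among the 4 MFP times 2 did (Per3 and Nr1d2), where 11.2% of all genes did. The first of these calls was lost for Cry1 without MPA replicate 2 (adjusted p = 0.0923), either array without MPA (0.0586 and 0.0594) or either 12 h array (0.0833 and 0.0798), for Per3 without either 12 h array (0.0606 and 0.0942), and for Nr1d2 without MFP 12 h replicate 1 (0.0673). Among the MFP times Per3 was lost without MFP 6 h replicate 2 (0.0547), either 12 h array (0.0610 and 0.0966), MFP 24 h replicate 2 (0.0799) or MFP 48 h replicate 1 (0.0506). Nr1d2 was lost there without any 1 of 8 arrays: both without MPA (0.0516 each), both after 6 h (0.0700 and 0.0669), both after 12 h (0.133 and 0.0874), MFP 24 h replicate 2 (0.0527) and MFP 48 h replicate 2 (0.105). At 12 h 3 of the 10 differed from MPA, where 4.28% of all genes did.

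**Figure D1:**
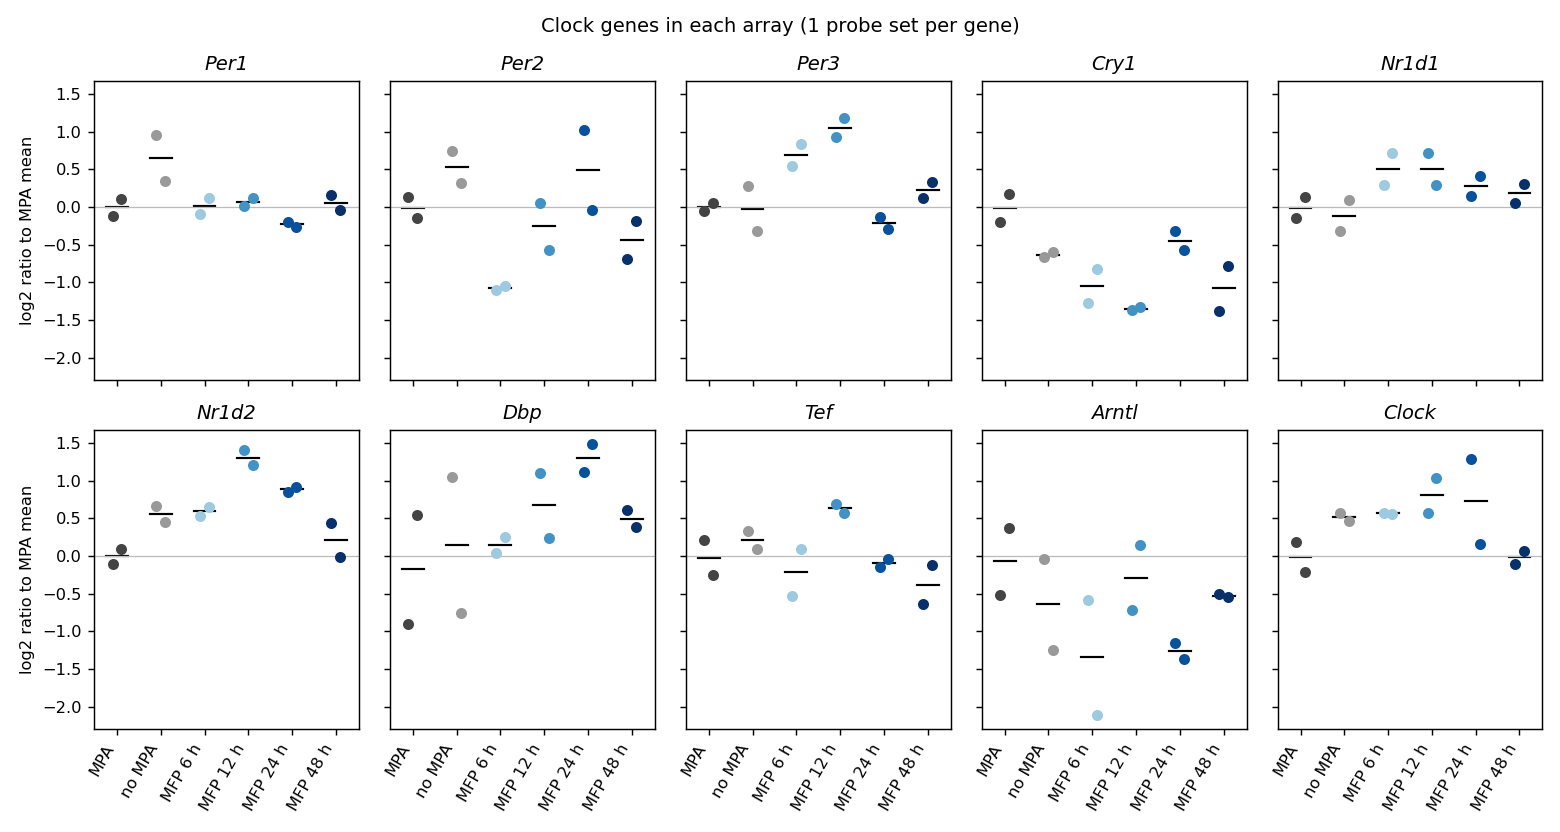
Each dot is 1 array and each bar the mean of a group's 2 arrays, on the log2 scale relative to MPA, for the probe set that stands for each of the 10 clock genes. Cry1 lies below both MPA arrays in all 10 other arrays, while Nr1d2 and Per3 peak after 12 h of MFP.

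Cry1, which encodes a repressor of the CLOCK and ARNTL pair, was highest in the tumours with MPA. It stood at -0.20 and 0.17 in the MPA arrays, at -0.67 and -0.59 without MPA, at -1.28 and -0.83 after 6 h, at -1.37 and -1.33 after 12 h, at -0.32 and -0.57 after 24 h, and at -1.38 and -0.78 after 48 h of MFP. All 10 arrays of the other groups lay below both MPA arrays. Cry1 fell after 12 h (-1.34 ± 0.26, adjusted p = 0.0215) and after 48 h (-1.07 ± 0.26, adjusted p = 0.0257). The difference from MPA was -1.04 ± 0.26 after 6 h (adjusted p = 0.0875) and -0.43 ± 0.26 after 24 h (adjusted p = 0.355), and neither passed. Between these low points the arrays after 24 h were higher than those after 12 h without overlap (0.90 ± 0.26, adjusted p = 0.115). The tumours without MPA stood at -0.62 ± 0.26 against MPA (adjusted p = 0.737), and the tumours after 48 h of MFP at -0.45 ± 0.26 against those without MPA (adjusted p = 0.313). Cry1 has a single probe set here, so no other probe set bears on these values. The call after 12 h was lost without MPA replicate 1 (adjusted p = 0.0507), MPA replicate 2 (0.0989), MFP 12 h replicate 1 (0.115) or MFP 12 h replicate 2 (0.117), with differences between -1.52 and -1.15. The call after 48 h was lost without MPA replicate 1 (adjusted p = 0.0643), MPA replicate 2 (0.113) or MFP 48 h replicate 1 (0.146).

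Per3, the period gene with the weakest known part in keeping the rhythm itself, rose after 12 h. Its values were -0.06 and 0.05 with MPA, 0.28 and -0.32 without MPA, 0.55 and 0.84 after 6 h, 0.93 and 1.18 after 12 h, -0.14 and -0.30 after 24 h, and 0.12 and 0.34 after 48 h. The 4 arrays after 6 h and 12 h were the highest of the 12, and both arrays after 24 h were below both MPA arrays. Against MPA the difference was 1.05 ± 0.24 after 12 h (adjusted p = 0.0387) and 0.70 ± 0.24 after 6 h, which did not pass (adjusted p = 0.205). From 12 h to 24 h Per3 fell by 1.27 on the log2 scale (-1.27 ± 0.24, adjusted p = 0.0186), the only member that changed between successive times. In that step 2.54% of all genes changed and 0.583% fell.

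The 6 probe sets of Per3 did not move alike. All 6 were above MPA after 12 h and all 6 were lower after 24 h than after 12 h, but their correlations over the 12 arrays ranged from 0.24 to 0.74 (median 0.43, 15 pairs). The largest rise was that of a probe set other than the one that stands for the gene, with values of 1.48 and 0.75 after 12 h and 0.01 and -0.01 with MPA. All 10 arrays other than MPA were above both MPA arrays in this probe set. Fitted with all probe sets, the probe set that stands for the gene and this one rose after 12 h (adjusted p = 0.0343 and 0.0372), and the other 4 did not pass. With the mean of its 6 probe sets Per3 stood at 0.58 after 12 h against MPA and did not pass (adjusted p = 0.0980), nor did the step from 12 h to 24 h, at -0.58 (adjusted p = 0.125). With that mean Per3 also missed the F-test of limma among the 6 groups (adjusted p = 0.0563). It still passed among the 4 MFP times. The rise after 12 h was lost without either MPA array (adjusted p = 0.133 without replicate 1 and 0.102 without replicate 2), either MFP 12 h array (0.117 and 0.221) or either MFP 6 h array (0.0550 for both). The fall to 24 h was lost without MFP 12 h replicate 1 (0.0822), MFP 12 h replicate 2 (0.165) or MFP 24 h replicate 2 (0.134).

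Per2, which encodes a period protein that the rhythm needs, was lowest after 6 h and highest without MPA. It stood at 0.14 and -0.15 with MPA, at 0.74 and 0.32 without MPA, at -1.10 and -1.05 after 6 h, at 0.05 and -0.57 after 12 h, at 1.02 and -0.04 after 24 h, and at -0.68 and -0.18 after 48 h. Both 6 h arrays were below the other 10, and the 24 h arrays differed by more than 1 on the log2 scale. At 6 h the difference from MPA was -1.07 ± 0.36 (adjusted p = 0.193). The test among the 6 groups was not passed (adjusted p = 0.0513). It was passed without MFP 24 h replicate 2 (adjusted p = 0.0194), without MFP 24 h replicate 1 (0.0367) and without both (0.0317). Without MFP 24 h replicate 2 Per2 also differed among the MFP times (adjusted p = 0.0253, against 0.0720 with it). Among the 6 groups it also passed with array weights (0.0353), with median centring (0.0412) and without the genes of lowest SD (0.0439). The 3 probe sets of Per2 had correlations of 0.52 to 0.87 with each other, and all 3 were highest without MPA, but after 6 h their means were -1.08, -0.40 and 0.06.

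Per1, the period gene that steroid receptors induce directly, was highest without MPA. Its values were -0.12 and 0.11 with MPA and between -0.26 and 0.16 in the 8 MFP arrays. Without MPA it was 0.96 and 0.34, above every other array. The difference between the tumours without MPA and with MPA was 0.66 ± 0.23 (adjusted p = 0.701), a comparison in which 0 of 18193 genes passed the test of limma and 1198 had an unadjusted p under 0.05. The tumours after 48 h of MFP were lower than those without MPA, with no overlap (-0.59 ± 0.23, adjusted p = 0.135). None of the 10 members passed in that comparison, where 12.5% of all genes did.

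Nr1d2, which encodes the repressor REV-ERB beta, had the largest rise that passed among the 10 genes. It stood at -0.10 and 0.09 with MPA, at 0.67 and 0.46 without MPA, at 0.53 and 0.66 after 6 h, at 1.40 and 1.21 after 12 h, at 0.85 and 0.92 after 24 h, and at 0.45 and -0.01 after 48 h. Of the 10 arrays other than MPA, 9 were above both MPA arrays, the exception being MFP 48 h replicate 2. Nr1d2 rose after 12 h (1.31 ± 0.21, adjusted p = 0.0119) and after 24 h (0.89 ± 0.21, adjusted p = 0.0301), where 8.75% of all genes changed and it was the only member to do so. At 6 h the difference was 0.60 ± 0.21 (adjusted p = 0.224), and after 48 h it was 0.22 ± 0.21 (adjusted p = 0.575). The arrays after 12 h were above those after 6 h (0.71 ± 0.21, adjusted p = 0.445) and those after 48 h below those after 24 h (-0.67 ± 0.21, adjusted p = 0.174), without overlap in either step and without passing. Tumours without MPA stood at 0.56 ± 0.21 (adjusted p = 0.711).

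The second probe set of Nr1d2 ran in parallel (r = 0.87 over the 12 arrays), with a mean of 0.88 after 12 h and 0.35 after 24 h. With the mean of both probe sets the rise after 24 h was 0.63 and did not pass (adjusted p = 0.0706). Without MPA replicate 1 the rise after 12 h had an adjusted p of 0.0609, and it also missed the threshold without MFP 12 h replicate 1 (0.0849) or replicate 2 (0.0698). That after 24 h was lost without any 1 of the 4 arrays compared (adjusted p = 0.146 and 0.0574 without MPA replicates 1 and 2, 0.0691 and 0.132 without MFP 24 h replicates 1 and 2). Both of the latter arrays carried high liver genes (medians 3.51 and 4.03). The correlation of Nr1d2 with the mean of the liver genes over the 12 arrays was 0.11, within a range over the 10 members from -0.63 (Per1) to 0.30 (Dbp). A correlation over all arrays cannot show what liver tissue added at 24 h, and that part was not tested.

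Nr1d1, which encodes REV-ERB alpha, had its highest group means after 12 h and 6 h, as Per3 did, but none of its differences passed. Its values were -0.14 and 0.13 with MPA, -0.32 and 0.09 without MPA, 0.29 and 0.71 after 6 h, 0.72 and 0.30 after 12 h, 0.14 and 0.42 after 24 h, and 0.06 and 0.30 after 48 h. Of the 8 MFP arrays 7 were above both MPA arrays. The difference from MPA was 0.51 ± 0.25 after 6 h (adjusted p = 0.397) and 0.52 ± 0.25 after 12 h (adjusted p = 0.326). In the order of its group means every neighbouring pair of groups overlapped.

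Dbp, an output gene of the clock with a strong rhythm in liver, varied within groups more than any other member. It stood at -0.90 and 0.55 with MPA, at 1.05 and -0.76 without MPA, at 0.04 and 0.26 after 6 h, at 1.11 and 0.24 after 12 h, at 1.11 and 1.49 after 24 h, and at 0.61 and 0.38 after 48 h. The 24 h arrays were the highest of the 12, and those 2 arrays also carried the liver genes, with whose mean Dbp had a correlation of 0.30 over the 12 arrays. The difference from MPA after 24 h was 1.48 ± 0.58 and did not pass (adjusted p = 0.153). The second probe set of Dbp was highest after 6 h instead (0.67) and stood at 0.16 after 24 h, and the correlation of the 2 probe sets was 0.11.

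Tef, the other PAR bZIP gene, was highest after 12 h. Its values were 0.21 and -0.25 with MPA, 0.34 and 0.09 without MPA, -0.53 and 0.10 after 6 h, 0.70 and 0.57 after 12 h, -0.14 and -0.04 after 24 h, and -0.63 and -0.12 after 48 h. Both 12 h arrays were above the other 10. The difference from MPA after 12 h was 0.65 ± 0.28 (adjusted p = 0.242), and the steps from 6 h to 12 h (0.85 ± 0.28, adjusted p = 0.490) and from 12 h to 24 h (-0.72 ± 0.28, adjusted p = 0.235) did not pass either. The correlations of its 3 probe sets were 0.09 to 0.38, and only 1 of them was highest after 12 h.

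Arntl, which encodes the partner of CLOCK, did not pass in any comparison. It stood at -0.51 and 0.38 with MPA, at -0.04 and -1.24 without MPA, at -0.58 and -2.11 after 6 h, at -0.72 and 0.14 after 12 h, at -1.15 and -1.37 after 24 h, and at -0.51 and -0.54 after 48 h. The arrays of a group lay up to 1.54 apart, and all neighbouring groups in the order of the means overlapped. The difference from MPA was -1.28 ± 0.54 after 6 h (adjusted p = 0.299) and -1.19 ± 0.54 after 24 h (adjusted p = 0.215). Its second probe set stayed between -0.54 and 0.55, with a correlation of 0.03 with the first, so the low values after 6 h and 24 h were seen in 1 probe set of 2.

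Clock, which encodes the partner of ARNTL, was above both MPA arrays in 7 of the other 10. Its values were 0.19 and -0.21 with MPA, 0.57 and 0.47 without MPA, 0.57 and 0.56 after 6 h, 0.58 and 1.04 after 12 h, 1.29 and 0.16 after 24 h, and -0.10 and 0.07 after 48 h. The 48 h arrays thus lay within the range of the MPA arrays. The difference from MPA was 0.82 ± 0.34 after 12 h (adjusted p = 0.224) and 0.74 ± 0.34 after 24 h (adjusted p = 0.214). Without MFP 24 h replicate 2, the lower of that pair, the 24 h difference was 1.31 and passed (adjusted p = 0.0389), as did the test among the 6 groups (0.0422, against 0.270 with it). A second of its 4 probe sets also had its highest mean after 12 h (0.82), while the other 2 had group means no farther from 0 than 0.29 in any group.

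**Figure D2:**
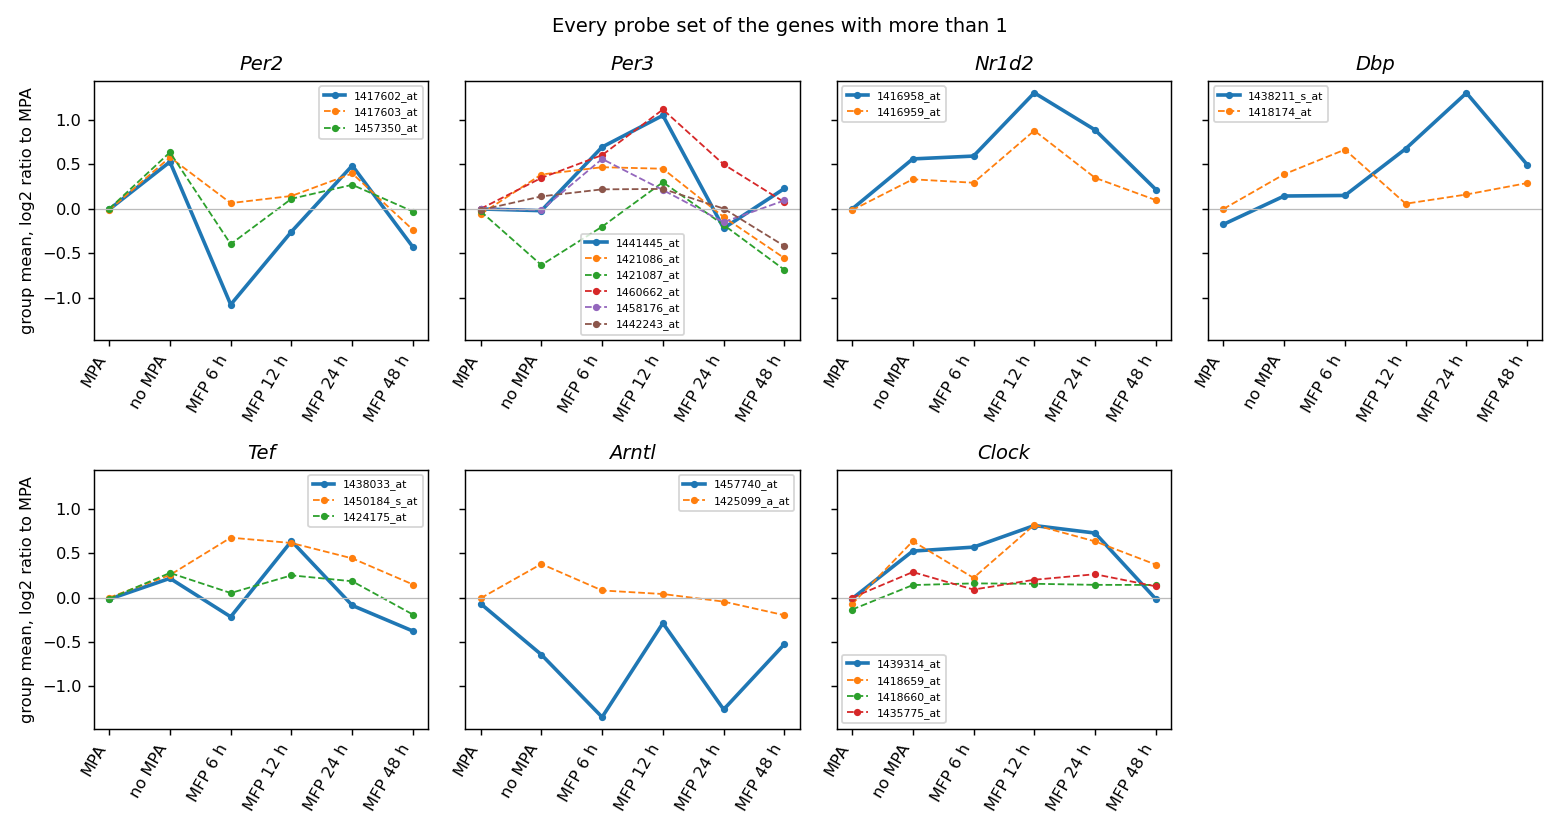
Lines join the group means (log2 ratio to the MPA mean, n = 2 arrays) of every probe set of the 7 clock genes that have more than 1, with a thick line for the probe set that stands for the gene. The 2 probe sets of Nr1d2 run in parallel, while those of Dbp and Arntl do not.

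By time, the differences from MPA share the MPA arrays and are given side by side. At 6 h 0 of the 10 members passed, where 1.25% of all genes did; 5 members had an unadjusted p under 0.05 (Per2, Per3, Cry1, Nr1d2 and Arntl), against 15% of all genes. At 12 h Per3 and Nr1d2 rose, in a direction taken by 1.66% of all genes, and Cry1 fell, as did 2.62% of all genes. At 24 h Nr1d2 alone passed, by a rise as 4.55% of all genes showed, and after 48 h Cry1 alone, where 12.5% of all genes changed and 6.02% fell. The median difference over the 10 members was 0.17 after 6 h, 0.59 after 12 h, 0.11 after 24 h and 0.03 after 48 h. That over all genes was between -0.03 and 0.02 at these times. No member passed in the steps from 6 h to 12 h and from 24 h to 48 h, where 0% and 2.35% of all genes did. In the first of these 3 members (Per2, Nr1d2 and Tef) and 1348 genes had an unadjusted p under 0.05. The arrays of MFP and MPA did not overlap for 7 members after 6 h (45.1% of all genes), 6 after 12 h (47.7%), 7 after 24 h (49.5%) and 3 after 48 h (53.4%).

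**Figure D3:**
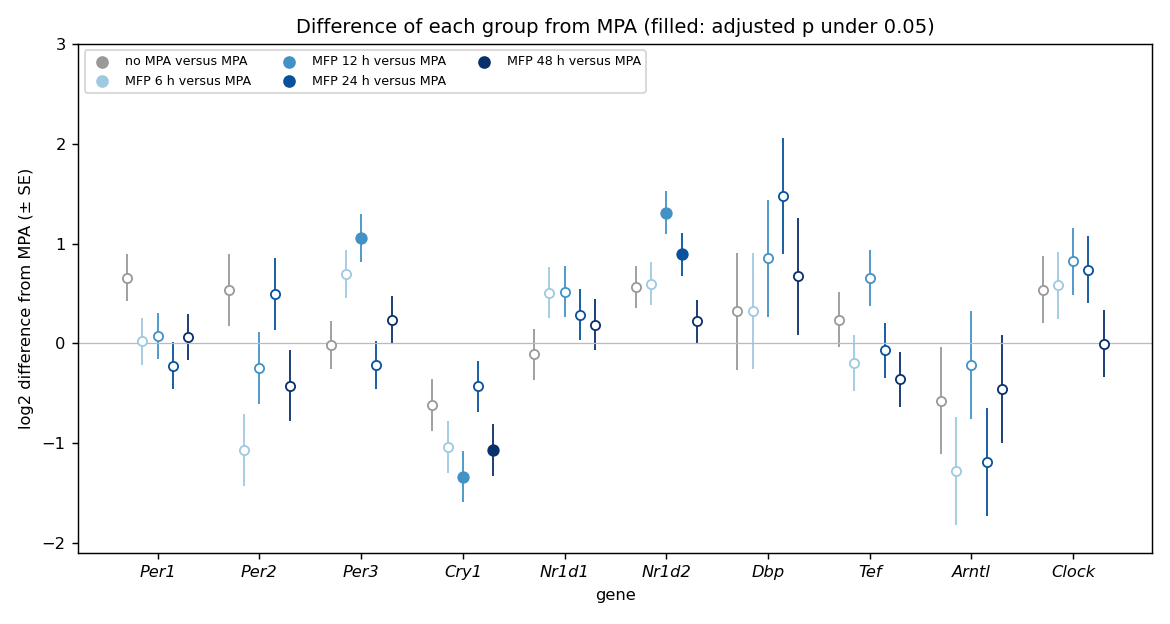
Points give each group's log2 difference from MPA for the 10 clock genes with its standard error from limma (n = 2 arrays per group), and filled points have an adjusted p under 0.05. Filled points are seen for Per3 after 12 h, Cry1 after 12 h and 48 h, and Nr1d2 after 12 h and 24 h.

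The activators were also set against 5 of the 8 members they drive in each array, a choice that leaves out Per1, Per2 and Cry1. The mean of Dbp, Tef, Per3, Nr1d1 and Nr1d2 was -0.20 and 0.11 with MPA, 0.40 and -0.09 without MPA, 0.18 and 0.51 after 6 h, 0.97 and 0.70 after 12 h, 0.37 and 0.50 after 24 h, and 0.12 and 0.18 after 48 h. It was highest in both 12 h arrays, but over all 8 driven members, a mean added after seeing the data, these stood at 0.44 and 0.22, and an array without MPA at 0.38. The mean of Arntl, Clock and Npas2, a paralogue of Clock, ranged from -0.60 in MFP 6 h replicate 2 to 0.48 in MFP 12 h replicate 2. The first mean minus the second was -0.14 and 0.11 with MPA and positive in the 10 other arrays, from 0.19 to 1.11, but arrays of the same group differed in it by up to 0.78, after 6 h. With all 8 driven members it was -0.08 and 0.09 with MPA and ran from -0.26 to 0.70 in the other arrays, 3 of which were below 0 (MFP 6 h replicate 1, MFP 12 h replicate 2 and MFP 48 h replicate 1), so the pattern rests on which members enter the mean. The MPA pair lies near 0 by the construction of the ratios. Between members the correlations over the 12 arrays ran as low as -0.65, for Per3 and Cry1. These are descriptions over arrays that share groups, and carry no test.

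**Figure D4:**
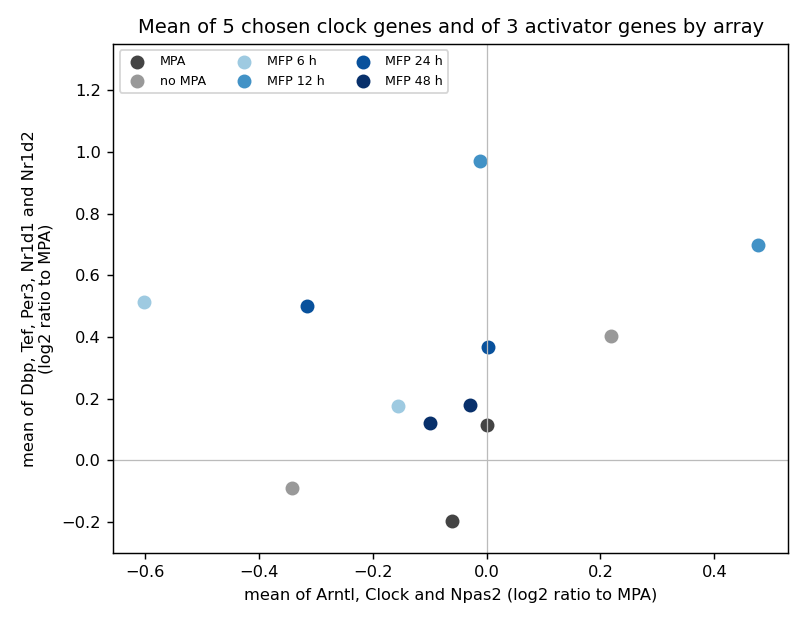
Each dot is 1 array, placed by the mean log2 ratio of Arntl, Clock and Npas2 (horizontal) and that of Dbp, Tef, Per3, Nr1d1 and Nr1d2 (vertical). The 2 arrays after 12 h of MFP are the highest on the vertical axis, at 0.97 and 0.70, and differ on the horizontal axis; Per1, Per2 and Cry1 are not in the mean.

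Among 15 other measured clock genes and regulators 5 differed among the 6 groups, where 17.3% of all genes did. Rorb, Bhlhe41, Timeless and Bhlhe40 were among them. The list was written from textbook knowledge, but with earlier results of these data known. Bhlhe41 (DEC2), a repressor that binds E-boxes, rose after 12 h (1.48 ± 0.25, adjusted p = 0.0134), 24 h (1.21 ± 0.25, adjusted p = 0.0164) and 48 h (1.36 ± 0.25, adjusted p = 0.00973). Its arrays were 1.44 and 1.50 after 12 h, against -0.12 and 0.11 with MPA, and 0.89 and 0.79 without MPA. Its paralogue Bhlhe40 (DEC1) differed among the groups (adjusted p = 0.0385) and was highest after 12 h, at 0.86 and 1.03, against -0.13 and 0.12 with MPA; the difference from MPA did not pass (0.95 ± 0.26, adjusted p = 0.0730).

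Of the ROR genes, whose products activate Arntl where REV-ERB represses it, Rora and Rorb changed. Rora was -0.47 and 0.35 with MPA and -1.02 and -0.89 without MPA. Under MFP it was -0.90 and -1.43 after 6 h, -1.01 and -0.63 after 12 h, 0.13 and 1.17 after 24 h, and -0.30 and 0.56 after 48 h. It differed among the MFP times (adjusted p = 0.0452), and its highest array was MFP 24 h replicate 2, in which both liver and pancreas genes were high. Rorb rose after 48 h, at 1.18 and 1.54 against 0.11 and -0.12 with MPA (1.36 ± 0.25, adjusted p = 0.00922), and also against the tumours without MPA (1.28 ± 0.25, adjusted p = 0.00917). Timeless, whose product works at replication forks in mammals, fell after 24 h (-1.35 ± 0.32, adjusted p = 0.0284), in arrays where the median of 9 mitotic genes was -2.83 and -2.03. Of the 15 genes 0 passed after 6 h, 1 rose after 12 h, 1 rose and 1 fell after 24 h, and 2 rose after 48 h, where 1.25%, 4.28%, 8.75% and 12.5% of all genes passed (6.47% rose after 48 h). The medians of their differences were between -0.03 and 0.18 at these times, and those over all genes between -0.03 and 0.02.

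**Figure D5:**
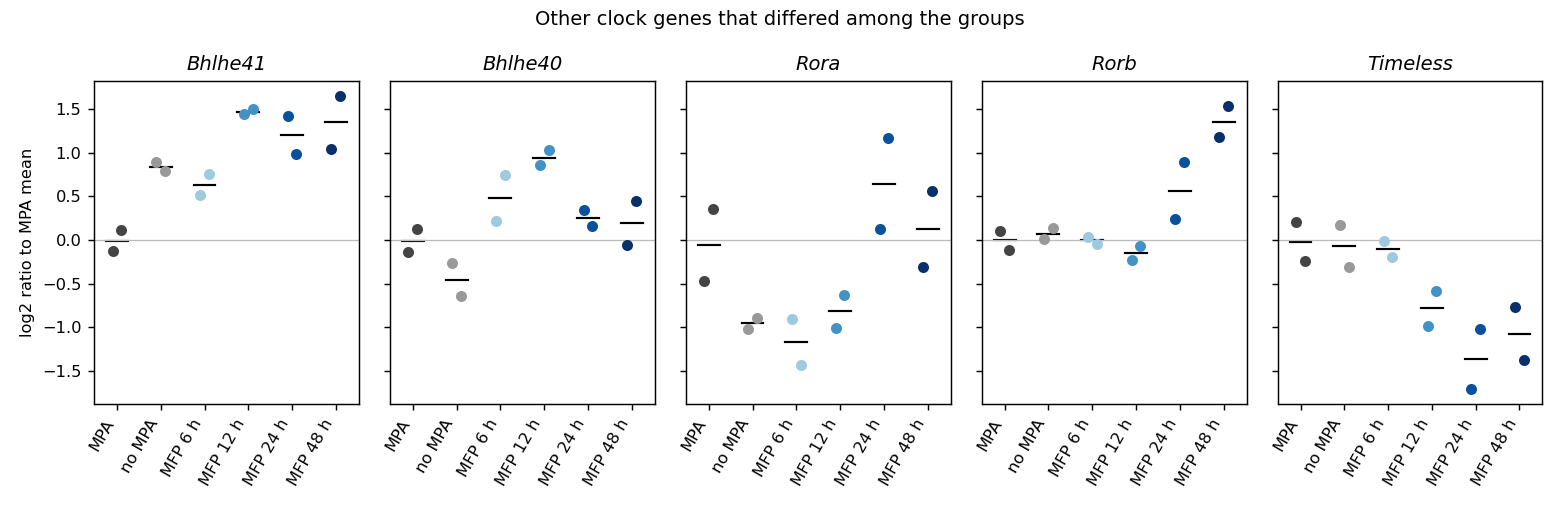
Dots are single arrays and bars the group means (log2 ratio to the MPA mean, n = 2 arrays) for the 5 other clock genes that differed among the 6 groups. Bhlhe41 stays high from 12 h to 48 h of MFP, Bhlhe40 is highest after 12 h, and Rorb is highest after 48 h.

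Of 9 measured output genes of the clock 1 passed against MPA at any time, after 48 h, when 12.5% of all genes did: Klf9, a transcription factor gene that glucocorticoids also induce, fell after 48 h (-1.43 ± 0.36, adjusted p = 0.0305), after values of 0.84 and 0.51 after 6 h and 0.91 and 0.40 after 12 h. Of 8 genes known as targets of steroid receptors, among them Klf9 and Tsc22d3 of the output list, 0 passed after 6 h, 2 fell after 12 h, 3 after 24 h and 4 after 48 h, and none rose. Of all genes 2.62%, 4.2% and 6.02% fell at the last 3 times. The median difference from MPA over the 8 genes was -0.02 after 12 h, -0.08 after 24 h and -0.85 after 48 h. Some genes of the list stood above MPA without passing, such as Sgk1 (0.80 ± 0.33, adjusted p = 0.166) and Tsc22d3 (1.25 ± 0.47, adjusted p = 0.134) after 24 h. Fkbp5, which encodes a cochaperone of these receptors, fell after 12 h (-1.32 ± 0.26, adjusted p = 0.0218), 24 h and 48 h. It stood at -1.25 and -1.47 after 12 h. Zbtb16, which encodes a transcriptional repressor, fell at the same 3 times. It stood at -1.78 and -2.47 after 12 h (-2.07 ± 0.40, adjusted p = 0.0215), and at 0.14 and 0.16 without MPA. Ddit4, which encodes an inhibitor of mTORC1 signalling, fell after 24 h (-2.17 ± 0.25, adjusted p = 0.00132) and 48 h (-1.94 ± 0.25, adjusted p = 0.00329).

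Genes with the most similar course over the 12 arrays were sought for the 3 members that differed among the groups. Nr1d2 was followed most closely by Mal2 (r = 0.94), Tspan13 (r = 0.93) and Ccdc162 (r = 0.91). For Cry1 they were Pigo (r = 0.92), Ccar1 (r = 0.89) and Yars (r = 0.88), and for Per3 B930095G15Rik (r = 0.91), Zfp467 (r = 0.90) and 9330159F19Rik (r = 0.90). No other clock gene was among these, and such values are the highest among all genes, over arrays that share 6 groups.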

How the data were processed

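RNA of 12 tumour samples was measured on Affymetrix mouse whole-genome arrays, with 200 ng of RNA per labelling per the labels' protocols. The labels do not say whether each came from a separate tumour. GCRMA, which corrects background and summarises probes, is named in the submitters' processing notes with no version. The deposited values are log2 ratios, since in 45099 of 45101 probe sets the pair of MPA arrays has a linear mean of 1 (tolerance 0.0001). Column medians lie between -0.11 and 0.01. Signal over background is unknown, and the number of arrays limits the precision.

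Only the 34945 probe sets with 1 symbol were used (932 have several, 9160 others none here, and 64 are controls), and 34741 of them matched the RefSeq gene table by gene ID, with 0 symbols changed. Of several probe sets the one whose SD over the arrays was largest stood for its gene, which favours probe sets with larger changes. Tests used limma 3.58.1 in R 4.3.3 (group means over all 12 arrays, eBayes with 6 residual and 4.21 prior degrees of freedom), 9 contrasts and 2 F-tests, each adjusted by Benjamini-Hochberg over all genes. Groups follow the source names. Replicate numbers only name arrays. Arrays of a group differed with an SD of 0.39 to 0.56 over the probe sets, and none were identical.

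All 10 members are named. Of the other lists up to 4 genes past the threshold, those of smallest p, may be named for each list and comparison (Rora through the test among the MFP times), and the 3 most correlated genes for members past the F-test among 6 groups. The members and lists were chosen with earlier results of these data known. Some listed genes were not analysed here. On simulated data (18193 genes, 200 of them changed, MFP 12 h versus MPA) the test recovered 17.9% of log2 changes of 1 and 76.6% of log2 changes of 2, and 5.01% of calls were false. The simulated noise of a gene had the same spread in every array. In the data 4.28% of all genes passed in that comparison, so these shares may not carry over to the data or to other comparisons. Alternatives were the mean of all probe sets, all probe sets fitted, only the groups compared, quantile normalization, median centring (added after seeing the data), array weights, a filter on SD, leaving out the MFP 24 h group, and leaving out each array.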

Additional observations from a re-analysis of the deposited data

How the results depend on the processing

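No member's called difference turned its sign in any alternative, and of 2090 values recomputed for the 10 members, 67 lost a call and 9 gained one. Counts of members passing were within 1.5 times of the reported ones with median centring (chosen after seeing the data), a filter dropping the 25% of genes with the lowest SD (13644 left) and without the MFP 24 h group, although the filter lost the call of Per3 at 12 h (adjusted p = 0.0501). Fitted on only the groups compared, 0 members passed at 12 h, at 24 h and at 48 h against MPA and in the step from 12 h to 24 h, and 1 (Per3) passed among the 4 MFP times; fewer arrays leave fewer degrees of freedom. With quantile normalization 0 passed among the 6 groups, among the 4 MFP times, at 24 h, at 48 h and in the step from 12 h to 24 h, and 1 (Nr1d2) at 12 h. This step also equalizes the spread over probe sets, which as deposited is 0.26 and 0.27 in the MPA arrays and 0.39 to 0.74 in the others. With the mean of all probe sets 0 passed at 24 h and in the step from 12 h to 24 h, and Per3 was lost among the 6 groups and at 12 h. With array weights 0 passed at 24 h. The causes of these losses were not tested.

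Leaving out each array in turn, the count ranged from 0 to 5 among the 6 groups (3 reported), from 0 to 2 among the 4 MFP times (2 reported), from 0 to 3 at 12 h (3 reported), from 0 to 1 at 24 h, at 48 h and in the step from 12 h to 24 h (1 reported for each), and it was 0 throughout in the other comparisons. Among the 6 groups it fell to 0 when MFP 12 h replicate 1 was left out, and omitting MFP 24 h replicate 2 gave 5. No paired analysis was possible because the labels give no replicate numbers. Groups hold 2 arrays each, and in the simulation of MFP 12 h versus MPA changes of 1 on the log2 scale were mostly missed. A member that did not pass is therefore not shown to be unchanged.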

Other observations

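Values that did not pass are given here for Nfil3 and Hlf, which belong to the D-box loop, for Tsc22d3 and for the member Per1. These genes were chosen after their values were seen. Nfil3, which encodes the repressor that competes with DBP and TEF at D-boxes, stood at -0.62 and -1.45 at 6 h of MFP, at -0.27 and -0.23 at 12 h, at -0.77 and -0.49 at 24 h and at -0.07 and -0.54 at 48 h, against -0.32 and 0.26 with MPA and 0.54 and 0.44 without MPA (adjusted p = 0.0514 among the 6 groups, limma). Both 6 h arrays and both 24 h arrays were below both MPA arrays. Hlf, the PAR bZIP gene related to Dbp and Tef, was highest in MFP 24 h replicate 2, at 1.39, in which the liver genes had a median of 4.03. It was 0.49 in the other 24 h array, where that median was 3.51. In MFP 6 h replicate 1, where that median was 1.09, Hlf was 0.98 (adjusted p = 0.254 among the 6 groups, limma). The pancreas medians of these arrays, in the same order, were 6.82, 0.72 and 6.16. Those of MFP 6 h replicate 2 and the 48 h arrays were 4.47, 4.97 and 5.57, where Hlf was -0.09, -0.05 and -0.74. The part of either tissue in Hlf was not tested. Tsc22d3, a glucocorticoid target with a daily rhythm in many tissues, was 1.93 and 0.80 without MPA, 1.14 and 1.27 at 24 h of MFP, and -0.04 and -0.97 at 12 h (adjusted p = 0.0744 among the 6 groups, limma). Per1 was highest without MPA and lowest at 24 h.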
